A study of Homo sapiens with 12 samples.

Results

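Gene expression was compared between HCT116 cells that carried the reverse construct and HCT116 cells that carried the scramble construct, with 3 polyA RNA libraries of each. HCT116 is an epithelial line from a human colorectal cancer. The comparison covers the 14980 genes with at least 10 reads in at least 3 of these 6 libraries, out of 63677 identifiers in the table, and 14618 of them could be tested. The deposited values had lost their decimal marks, so whole reads were restored first, and levels are given as reads or as normalized reads, the reads divided by the deposited size factor of the library. The other groups of the series, mCherry and CR3 with 3 libraries each, entered the estimate of the spread and are given beside the results where they help to place a gene. All 4 groups were grown in DMEM with 10% FCS and received doxycycline. The labels give its concentration as 1 ug/ul and its start as 48 before RNA extraction, without a unit of time. The submitters call the cells clones, and the number of clones in a group is not given. Construct and clone therefore cannot be told apart. Every library received the drug, so a response to it that depends on the construct cannot be separated either.

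The series concerns CR3, a peptide said in its title to perturb condensates, the membraneless assemblies in which proteins and RNA gather inside cells. A scrambled sequence keeps the composition of a peptide and changes its order, and a reversed one is read backwards. Both are common controls for the question of whether order matters beyond composition. No source used here gives the expressed sequences, so reverse and scramble are used only as names. Set against each other, they address how far cells with 2 such constructs differ in the absence of CR3 itself.

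Most genes differed little between the reverse and scramble cells, and a small set differed very strongly. Of the 14618 genes tested, 63 were called (0.431%), 37 higher in reverse (0.253%) and 26 lower in reverse (0.178%), at an adjusted p under 0.05 (limma with a mean-variance trend, Benjamini-Hochberg over all genes tested). Among these, 51 differed at least 2-fold (0.349%), 28 higher in reverse (0.192%) and 23 lower (0.157%). DOCK2, TEK, UGT2B7 and KCNMB2 had over 100 normalized reads on average in reverse cells and not a single read in scramble cells. SMIM18 had over 300 normalized reads on average in scramble cells and none in reverse cells. Without a correction for the number of genes, 1032 genes (7.06%) had a p under 0.05. All 3 reverse libraries lay above all 3 scramble libraries for 1138 genes (7.78%) and below them for 1170 (8%). A fit to the 6 libraries alone called 121 genes (0.828%), and 76 of 14980 were called (0.507%) when genes with an ambiguous read count were kept.

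The bulk of the transcriptome lay close to equality. The median log2 fold change of reverse over scramble was -0.0036, the 5th and 95th percentiles were -0.224 and 0.302, and the 95% interval of a gene reached 0.178 to either side at the median. The interval lay within 1.5-fold in either direction for 11913 genes (81.5%). Among the 11182 genes with a mean of at least 100 reads this held for 11037 (98.7%), and 22 of the 11182 were called. The SD over genes of the log2 difference between 2 libraries was 0.142 to 0.146 within reverse, 0.124 to 0.133 within scramble and 0.206 to 0.244 between the groups. Reads assigned to genes numbered 18938643, 19394282 and 21954881 in the reverse libraries and 20708062, 21025109 and 22788259 in the scramble libraries.

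**Figure D1:**
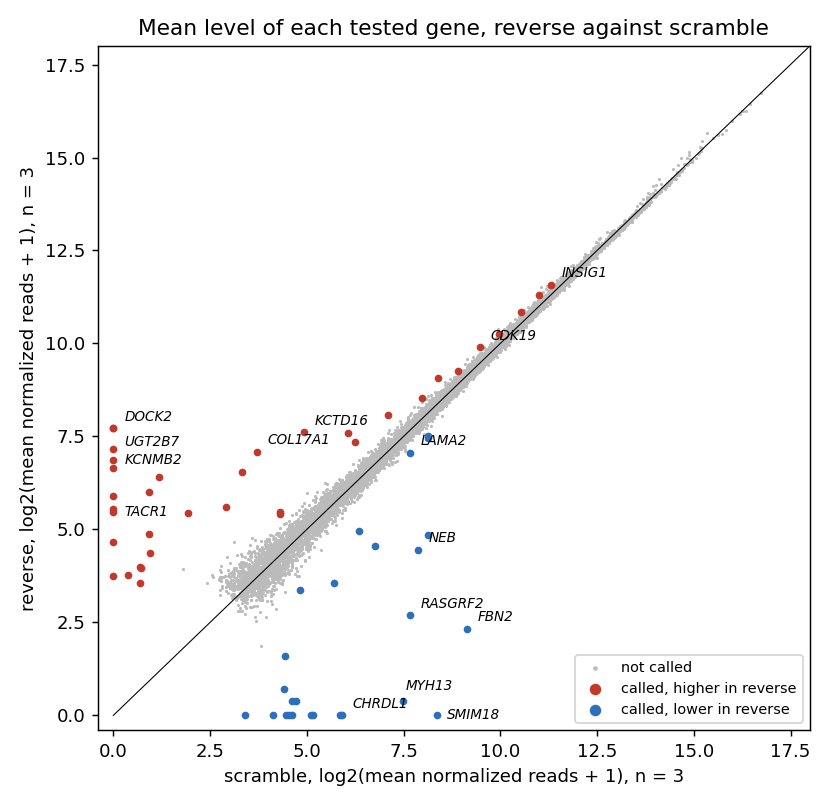
Mean normalized reads of each tested gene in reverse (vertical axis) and scramble (horizontal axis), as log2(mean + 1) over 3 libraries, with called genes in colour and the line of equality in black. The called genes with the largest differences lie on or near an axis, with no or few reads in 1 group, whereas most genes follow the line.

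The epithelial markers of the line were high in both groups. The 7 epithelial markers EPCAM, CDH1, KRT8, KRT18, KRT19, CLDN4 and CLDN7 summed to 60771 to 65369 normalized reads in reverse and to 63495 to 66781 in scramble, and 0 of the 7 were called by limma, with 1 of them (CDH1) at an unadjusted p of 0.0301. The 8 fibroblast markers summed to 676 to 844.6 in reverse and to 709.2 to 759.6 in scramble, nearly all from COL1A1. The 7 haematopoietic markers summed to at most 9.20 in reverse and 11.5 in scramble, with PTPRC, TYROBP and HBB at 0 in all 6 libraries. The 4 endothelial markers summed to at most 28.1 in reverse and 30.9 in scramble, with PECAM1 and CDH5 at 0 in all 6. For an embryonic kidney or neuron-like line 7 markers could be matched. They summed to 474 to 497.9 in reverse and to 424.4 to 490 in scramble, with STMN2 and ELAVL4 at 0. Nearly all of this came from PAX2 and LHX2. SIX2 averaged 15.9 in reverse and 8.54 in scramble, with an unadjusted p of 0.0101 and an adjusted p of 0.56 by limma. In bulk RNA, fewer cells with a transcript and less of it per cell cannot be told apart.

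The receptors and signalling proteins among the genes higher in reverse included DOCK2 and TEK. DOCK2, an activator of the GTPase Rac known mainly from blood cells, had 236, 174 and 234 reads in the reverse libraries and none in the scramble libraries, at least 76.3-fold higher against a floor of 3 reads per library (log2 fold change 7.72 ± 0.42 SE, adjusted p = 2.94e-10 by limma). TEK, the endothelial receptor for angiopoietins, had 213, 165 and 273 reads in reverse and none in scramble, at least 76.5-fold higher (7.72 ± 0.50, adjusted p = 3.28e-09 by limma). Every reverse library was far above every scramble library for both genes, while PECAM1, CDH5 and PTPRC had no read in either group. The mCherry libraries had no DOCK2 read and at most 2 TEK reads, and the CR3 libraries had 2 to 6 DOCK2 reads and 1 to 3 TEK reads. TACR1, the receptor of the neuropeptide substance P, had 40, 50 and 49 reads in reverse and none in any of the other 9 libraries, at least 16.5-fold higher than scramble (adjusted p = 1.68e-06 by limma). SFRP4, a secreted protein that binds Wnt ligands, had 105, 74 and 76 reads in reverse and 1, 3 and 0 in scramble, 67.3-fold higher by the ratio of group means (adjusted p = 1.33e-06 by limma).

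Enzymes formed the next group of genes higher in reverse. UGT2B7, which joins glucuronic acid to steroids, bile acids and drugs in the liver, had 130, 149 and 151 reads in reverse and none in the other 9 libraries, at least 51.0-fold higher than scramble (log2 fold change 7.15 ± 0.48 SE, adjusted p = 5.1e-09 by limma). Its relative UGT2B4 had 36, 43 and 55 reads in reverse and none in scramble, at least 15.8-fold higher (5.47 ± 0.59, adjusted p = 6.99e-06 by limma). The sequences of these paralogs are alike, so some reads may have been split between them. SI, the sucrase-isomaltase that digests sugars at the intestinal brush border, had 106, 96 and 102 reads in reverse, none in scramble, at most 4 in an mCherry library and at most 1 in a CR3 library. ACADL, which oxidizes long-chain fatty acids in mitochondria, had 51, 63 and 65 reads in reverse and none in scramble, and it was also present in CR3 with 14, 26 and 25 reads. Reverse was at least 36.1-fold higher than scramble for SI (adjusted p = 2.71e-07 by limma) and at least 21.2-fold higher for ACADL (adjusted p = 1.34e-08 by limma).

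Channels, transporters and adhesion proteins were the third kind. KCNMB2, a regulatory subunit of the large-conductance calcium-activated potassium channel, had 117, 100 and 136 reads in reverse and none in the other 9 libraries, at least 41.7-fold higher than scramble (log2 fold change 6.86 ± 0.50 SE, adjusted p = 1.34e-08 by limma). KCTD16, an auxiliary subunit of GABA-B receptors, averaged 195.8 ± 21.9 normalized reads in reverse and 29.4 ± 5.52 in scramble (SD, n = 3 each), and the mCherry and CR3 means of 30.6 and 32.6 were close to that of scramble. SLC1A2, a glutamate transporter, averaged 48.0 ± 10.4 in reverse and 6.56 ± 4.32 in scramble. COL17A1, a collagen of the hemidesmosomes that anchor epithelium, had 124, 115 and 178 reads in reverse and 11, 17 and 11 in scramble (3.41 ± 0.32, adjusted p = 7.92e-07 by limma). These 3 genes were low but detected in scramble and several-fold higher in every reverse library. RNF150, a RING finger protein, had 68, 50 and 77 reads in reverse and 1, 0 and 2 in scramble, so that the reverse mean was 69.3 times that of scramble (exact 95% counting interval 23.4 to 339). FLG-AS1, an antisense transcript at the filaggrin gene, had 49, 35 and 45 reads in reverse and 3, 4 and 2 in scramble. Because the strand setting of the counting is not known, its reads cannot be assigned to a strand with certainty. The calls of KCTD16, SLC1A2, COL17A1 and FLG-AS1 rest on powers of 10 chosen with a level of its own for each group. When reverse and scramble were read as 1 group their calls were lost, with KCTD16 at -0.57 on the log2 scale.

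Among these genes higher in reverse, UGT2B7, SI and KCNMB2 are shown by the 250 bases before their RefSeq start, because they had no scramble read and their upstream sequences hold few or no CG dinucleotides. The windows are chr4:69096224-69096473 on the plus strand for UGT2B7, chr3:165078497-165078746 on the minus strand for SI and chr3:178536186-178536435 on the plus strand for KCNMB2, all in GRCh38.p14. Capitals mark the CG dinucleotides. A gene can have other starts, and the start used in these cells is not known.
UGT2B7: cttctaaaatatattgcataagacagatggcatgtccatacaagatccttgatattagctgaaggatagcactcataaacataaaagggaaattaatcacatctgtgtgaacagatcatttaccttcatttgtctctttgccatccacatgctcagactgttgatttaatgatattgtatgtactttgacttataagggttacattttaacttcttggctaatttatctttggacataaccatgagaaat
SI: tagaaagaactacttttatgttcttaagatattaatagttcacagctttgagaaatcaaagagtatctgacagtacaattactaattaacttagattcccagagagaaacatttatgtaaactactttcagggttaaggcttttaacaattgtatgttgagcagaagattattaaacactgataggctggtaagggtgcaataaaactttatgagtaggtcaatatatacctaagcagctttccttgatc
KCNMB2: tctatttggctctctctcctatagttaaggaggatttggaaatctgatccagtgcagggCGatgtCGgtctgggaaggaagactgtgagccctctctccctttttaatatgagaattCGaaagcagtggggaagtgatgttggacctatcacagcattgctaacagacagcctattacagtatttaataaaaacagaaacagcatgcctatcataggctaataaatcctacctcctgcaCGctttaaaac
There was no CG in the UGT2B7 and SI windows and 4 in that of KCNMB2.

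MYH13, NEB and SMYD1, which are best known from muscle, were lower in reverse. MYH13, a myosin heavy chain of the muscles that move the eye, had 0, 0 and 1 reads in reverse and 177, 197 and 201 in scramble (log2 fold change -7.16 ± 0.48 SE, adjusted p = 5.1e-09 by limma). The scramble mean was 539 times that of reverse, with an exact 95% counting interval from 96.4 to 21300. NEB, the nebulin of muscle thin filaments, averaged 20.9 ± 1.95 normalized reads in reverse and 234.2 ± 30.6 in scramble (SD, n = 3 each; -3.42 ± 0.29, adjusted p = 1.31e-07 by limma). SMYD1, a methyltransferase of heart and skeletal muscle, had no read in reverse and 65, 51 and 69 in scramble, so that reverse was at least 19.2-fold lower. The mCherry and CR3 libraries had no MYH13 read and at most 1 SMYD1 read. NEB was detected in every group, with 18, 22 and 24 reads in reverse and 13, 36 and 25 in CR3. Its call was lost when the powers of 10 were chosen with reverse and scramble as 1 group (-0.16 on the log2 scale, adjusted p = 0.931 by limma).

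FBN2, ANK1 and LAMA2 were lower in reverse as well. FBN2, the fibrillin of elastic microfibrils, had 5, 5 and 2 reads in reverse and 567, 588 and 675 in scramble (log2 fold change -6.89 ± 0.30 SE, adjusted p = 8.61e-12 by limma). Its mean was also low in mCherry, at 3.51 normalized reads, and intermediate in CR3, at 257.8. ANK1, the ankyrin that ties the membrane skeleton of red cells to membrane proteins, averaged 28.0 ± 8.32 in reverse and 281.6 ± 17.2 in scramble (-3.33 ± 0.22, adjusted p = 3.33e-09 by limma). LAMA2, a laminin chain of basement membranes, differed far less, with 135, 133 and 135 reads in reverse and 207, 235 and 217 in scramble (-0.61 ± 0.13, adjusted p = 0.0441 by limma). Its call was lost when any single library was left out, with adjusted p-values of 0.101 to 0.343 over those 6 fits. When the powers of 10 were chosen with reverse and scramble as 1 group, FBN2 and ANK1 were no longer called, with log2 fold changes of -0.63 and -0.06.

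The remaining named genes that were lower in reverse had varied roles. SMIM18, a small membrane protein, had no read in reverse, mCherry or CR3 and 340, 363 and 356 in scramble, and was at least 110-fold lower in reverse (log2 fold change -8.35 ± 0.44 SE, adjusted p = 2.47e-10 by limma). CHRDL1, a secreted antagonist of bone morphogenetic proteins, had no read in reverse, 57, 63 and 71 in scramble and 25, 26 and 24 in CR3, at least 19.8-fold lower in reverse than in scramble. RASGRF2, an activator of Ras, had 6, 3 and 8 reads in reverse and 231, 227 and 195 in scramble (-5.01 ± 0.28, adjusted p = 2.94e-10 by limma). SCG2, a granin of secretory granules, averaged 30.2 ± 5.98 normalized reads in reverse and 80.0 ± 4.55 in scramble. GALNT13, which starts mucin-type O-glycans, averaged 22.7 ± 3.52 in reverse and 108.4 ± 5.82 in scramble (SD, n = 3 each). When the powers of 10 were chosen with reverse and scramble as 1 group, GALNT13 was called higher in reverse. Its log2 fold change was then 1.05 (adjusted p = 0.0113 by limma). GAB1, a docking protein of receptor tyrosine kinases, and GSDMA, a pore-forming gasdermin, were lower in reverse by less than 2-fold (-0.66 ± 0.11 and -0.61 ± 0.11). GAB1 lost its call without scramble library 2 (adjusted p = 0.0506 by limma), and GSDMA without reverse library 1, reverse library 2 or scramble library 3 (adjusted p = 0.0577 to 0.0959 by limma).

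MYH13 and FBN2 are shown by the same upstream window because both were nearly silent in reverse while their upstream sequences differ widely in CG content. The windows are chr17:10373007-10373256 and chr5:128538246-128538495, both on the minus strand of GRCh38.p14, with the CG dinucleotides in capitals.
MYH13: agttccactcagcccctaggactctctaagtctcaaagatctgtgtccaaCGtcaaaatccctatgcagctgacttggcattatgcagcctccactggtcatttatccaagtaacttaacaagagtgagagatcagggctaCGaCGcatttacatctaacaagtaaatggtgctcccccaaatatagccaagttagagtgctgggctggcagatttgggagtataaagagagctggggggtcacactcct
FBN2: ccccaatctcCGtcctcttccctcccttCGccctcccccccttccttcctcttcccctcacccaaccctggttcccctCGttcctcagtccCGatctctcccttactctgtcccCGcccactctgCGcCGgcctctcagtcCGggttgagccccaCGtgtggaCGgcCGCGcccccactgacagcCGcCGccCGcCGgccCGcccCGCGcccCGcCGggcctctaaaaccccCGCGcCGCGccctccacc
The MYH13 window held 3 CG dinucleotides and that of FBN2 held 25.

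**Figure D2:**
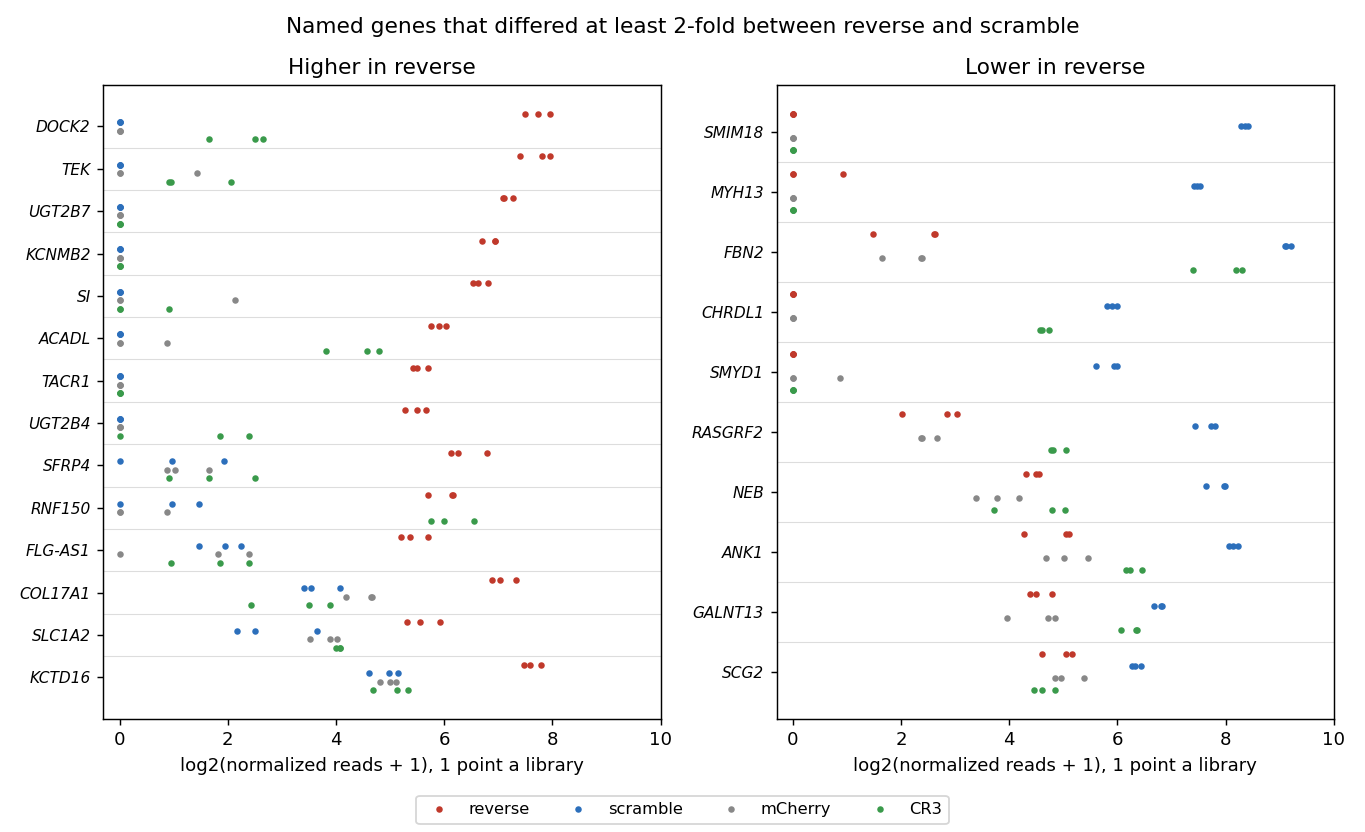
Normalized reads of named genes that differed at least 2-fold, as log2(normalized reads + 1), 1 point for each of the 3 libraries of reverse, scramble, mCherry and CR3. The rule for naming asked for reverse and scramble libraries that do not overlap, and in most rows the mCherry libraries lie with the lower of the 2 groups.

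Many of the called genes were close to absence in reverse or in scramble. Of the 37 genes called higher in reverse, 10 had no read in any scramble library, 17 had at most 3 reads over the 3 scramble libraries and 25 had a scramble mean under 20 normalized reads. Of the 26 genes called lower in reverse, 10 had no read in any reverse library, 14 had at most 3 reads over the reverse libraries and 19 had a reverse mean under 20. Together the 28 genes at least 2-fold higher in reverse held 0.0111% of the reads in reverse and 0.00128% in scramble. The 23 genes at least 2-fold lower held 0.000683% in reverse and 0.0122% in scramble. A gene with very few reads in a group may fail to be detected there at this depth without being absent. With at most 3 reads over a group, a gene passed the filter only through at least 10 reads in every library of the other. The filter thus fixes the separation of such genes, and their counts describe the called genes and are no test. Of the 63 called genes, 23 had at least 10 reads in all 6 libraries.

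The mCherry and CR3 libraries place these genes. Of the 28 genes at least 2-fold higher in reverse, the mCherry mean was nearer to scramble than to reverse on the log2 scale for 26, and the CR3 mean for 22. Of the 23 genes at least 2-fold lower in reverse, the mCherry mean was nearer to reverse than to scramble for 22, and the CR3 mean for 16. RNF150 was high in CR3 too, at 63.7 ± 10.9 normalized reads in reverse, 0.904 ± 0.878 in scramble and 69.6 ± 20.8 in CR3 (SD, n = 3 each). In ACADL and CHRDL1 the CR3 mean was intermediate, at 20.8 normalized reads for ACADL beside 58.7 in reverse and at 23.9 for CHRDL1 beside 58.6 in scramble. FMN1, a formin that builds actin cables, was the single gene of the 23 whose mCherry mean was nearer to scramble: it averaged 9.29 in reverse, 27.2 in scramble and 53.9 in mCherry. The genes were chosen by the contrast of reverse with scramble, so these counts describe them and are no test.

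**Figure D3:**
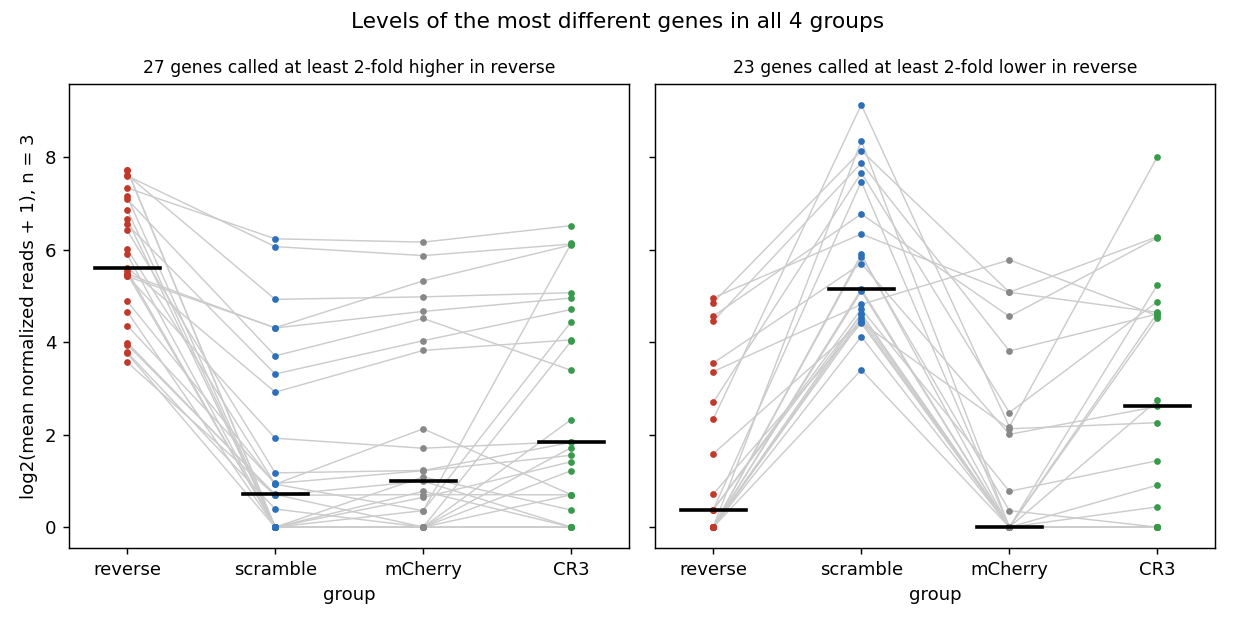
Group means of genes called at least 2-fold higher (27 of the 28 genes, left) or lower (23 genes, right) in reverse than in scramble, as log2(mean normalized reads + 1) over 3 libraries, with each gene joined by a line and the median of the genes as a black bar. On the left the scramble, mCherry and CR3 medians are low (0.63, 0.99 and 2.56 normalized reads) beside 48.0 in reverse, and on the right scramble is the high group (34.4) beside 0.30 in reverse, 0 in mCherry and 5.10 in CR3.

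Some called genes were expressed in both groups and differed less. INSIG1, which holds back the activation of sterol-responsive transcription, had 3009, 2837 and 3512 reads in reverse and 2666, 2755 and 2864 in scramble, that is 3065 ± 142 and 2548 ± 33.4 normalized reads (log2 fold change 0.27 ± 0.05 SE, adjusted p = 0.00742 by limma). Its call was lost without reverse library 1, reverse library 3 or scramble library 3, with adjusted p-values of 0.0724 to 0.0938. CDK19, a kinase of the Mediator complex, averaged 958.0 ± 26.3 in reverse and 708.6 ± 10.8 in scramble (0.43 ± 0.07, adjusted p = 0.000815 by limma). LCP1, an actin-bundling plastin, had 199, 164 and 227 reads in reverse and 77, 59 and 79 in scramble, a ratio of 2.92, and like DOCK2 it is best known from blood cells. EMP1, an epithelial membrane protein, averaged 267.5 in reverse and 135.5 in scramble. NCOA3, a coactivator of nuclear receptors, and PPP3CB, a catalytic subunit of calcineurin, were 1.23-fold and 1.24-fold higher in reverse. These 6 genes had at least 59 reads in every one of the 6 libraries.

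Other called genes extended the same range of roles. HGF, the ligand of the MET receptor, had no read in reverse and 22, 29 and 17 in scramble. CA1, a carbonic anhydrase, had none in reverse and 37, 39 and 32 in scramble. BPIFA2, a secreted salivary protein, had none in reverse and 29, 47 and 36 in scramble, and APOH, a plasma apolipoprotein, had 0, 0 and 1 in reverse and 27, 21 and 28 in scramble. KMO, an enzyme of tryptophan breakdown, had 11, 41 and 36 reads in reverse and 1, 0 and 2 in scramble. CYP39A1, which hydroxylates oxysterols, averaged 43.6 normalized reads in reverse and 18.8 in scramble. CGNL1, a protein of tight junctions, averaged 534.9 in reverse and 332.5 in scramble, and GLIS3, a zinc finger transcription factor, averaged 160.7 in reverse and 74.4 in scramble. The genes of this paragraph, together with FMN1, LCP1, EMP1, NCOA3 and PPP3CB, were picked after their values were seen.

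Most members of the gene lists of pathways and cell functions differed by small amounts. Of 680 distinct tested members of 36 lists, 5 were called (0.735%), against 0.431% of all genes tested, and 32 lists had none. At an unadjusted p under 0.05 there were 87 of the 680 members, 45 higher and 42 lower, and voom called 8. Over all genes tested, 1032 of 14618 (7.06%) reached that p. The fit to the 6 libraries alone called 18 of the 680, against 0.828% of all genes tested. List members thus exceeded the share over all genes on these measures, and the excess was not tested. The intervals of 636 members lay within 1.5-fold. In cholesterol synthesis 1 of 24 tested members, INSIG1, was called higher and 0 lower, with a median of 0.07 and 22 of 24 members above 0. Among Mediator, BET and coactivator genes 1 of 27, CDK19, was called higher, with a median of 0.003. In the list of matrix, laminins and proteases 1 of 21 was called higher (COL17A1) and 1 lower (LAMA2), with a median of 0.015. Only 3 of 18 haematopoietic and endothelial markers could be tested, of which TEK was called, and their median of 0.323 was the most distant of the 36 lists. These lists had no test of their own, and over all genes tested 7094 had a log2 fold change above 0 and 7524 below.

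Several larger lists had small shifts of the median without a called member. The DNA replication and G1/S list had a median log2 fold change of -0.10, with all 25 tested members below 0, 0 called and 9 at an unadjusted p under 0.05. Of all genes tested, 7.06% reached that p. Relative to the mean of the 6 libraries, its median was -0.003, 0.015 and -0.136 in the reverse libraries and 0.067, 0.024 and 0.051 in the scramble libraries, so every reverse library lay below every scramble library and reverse library 3 was lowest. The G2/M and mitosis list had a median of -0.086 with 25 of 26 members below 0, 0 called and 4 at an unadjusted p under 0.05. Its values were 0.016, 0.005 and -0.122 in reverse and 0.066, 0.023 and 0.041 in scramble, again without overlap. The groups did not overlap in other lists either, in 1 direction or the other. These were YAP and TEAD, proteasome, cholesterol synthesis, nuclear oxidative phosphorylation, histones, mesenchymal genes, and embryonic kidney and neuron-like markers. For ribosome biogenesis and RNA polymerase I the median was -0.085, with 20 of 25 members below 0, 0 called and 6 at an unadjusted p under 0.05, all lower. Its values were -0.064, 0.018 and -0.086 in reverse and 0.048, 0.011 and 0.061 in scramble, which overlapped. The HIF target list, genes that answer to low oxygen, had a median of 0.156 with 14 of 20 members above 0, 0 called and 6 at an unadjusted p under 0.05. Its value was 0.241 in reverse library 3, 0.066 and -0.072 in the other reverse libraries and -0.018, -0.137 and -0.016 in the scramble libraries. For the 13 mRNAs of the mitochondrial genome the median was 0.23 with all 13 above 0. By the main test 0 were called and 8 had an unadjusted p under 0.05, voom called 2 and the fit to the 6 libraries alone called 6. Their share of all reads was 1.71%, 1.99% and 1.74% in the reverse libraries and 1.78%, 1.36% and 1.51% in the scramble libraries, so the groups overlapped.

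**Figure D4:**
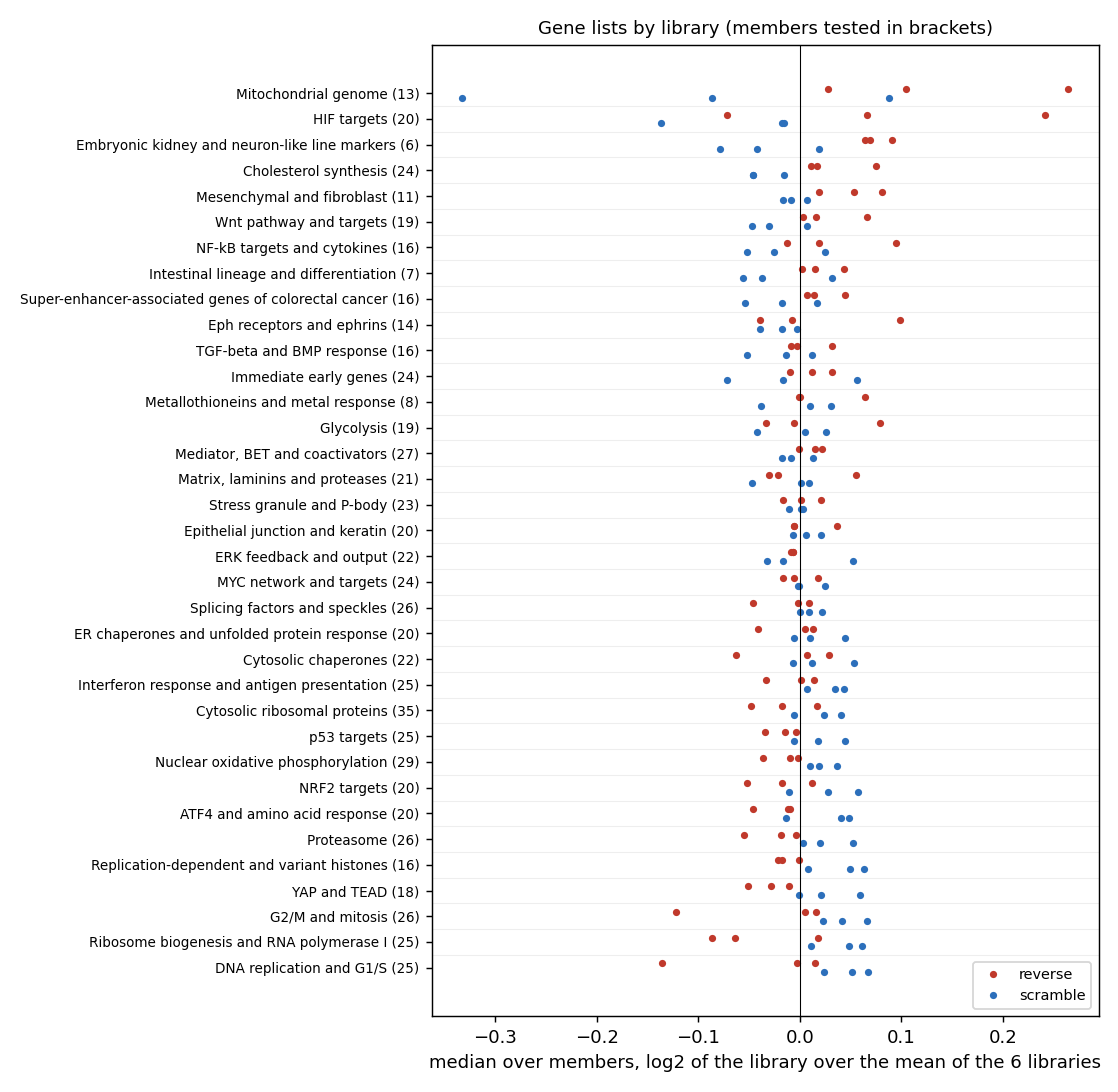
Median over the tested members of each of 35 lists with at least 5 tested members, as the log2 of a library over the mean of the 6 libraries, 1 point for each of the 3 reverse and 3 scramble libraries. Most points lie close to 0, the mitochondrial genome and HIF target lists are the widest, and reverse library 3 has the lowest point of the replication and mitosis lists (-0.136 and -0.122).

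Lists related to stress and growth had no member called by limma or voom. These were the targets of p53 (median -0.05, 25 tested), NRF2 (-0.034, 20 tested), NF-kB (0.043, 16 tested) and interferon (-0.006, 25 tested), the MYC network (-0.005, 24 tested) and the immediate early genes (0.006, 24 tested). At an unadjusted p under 0.05 they held 4, 2, 2, 0, 1 and 2 members, in that order. The cytosolic ribosomal proteins had a median of -0.032, with all 35 below 0, 0 at an unadjusted p under 0.05 and every interval within 1.5-fold. For the proteasome the median was -0.061 with 24 of 26 below 0, and for nuclear genes of oxidative phosphorylation it was -0.037 with 26 of 29 below 0, and 2 and 3 of their members had an unadjusted p under 0.05. The Wnt list had a median of 0.07 and 0 of 19 members called, and the super-enhancer-associated genes of colorectal cancer had a median of 0.049 and 0 of 16 called, with 2 members of each at an unadjusted p under 0.05. Members with larger single values, such as ANKRD37 (0.72, adjusted p = 0.393) and CXCL3 (1.14, adjusted p = 0.604), did not pass the test by limma.

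The called genes were spread over most chromosomes. The share called was highest on chromosome 4, with 4 higher and 3 lower of 524 tested (1.34%), and 0 of the tested genes were called on chromosomes 16, 18, 19, 21 and 22. Chromosome medians of the log2 fold change lay between -0.02 and 0.014. UGT2B7 and UGT2B4 are neighbours on chromosome 4, separated by 367178 bases, and both were without a read in scramble. On chromosome 7, INSIG1 (chr7:155297776-155310235) and the non-coding genes LINC03010 and AC008060.4 were all higher in reverse. LINC03010 averaged 12.8 normalized reads in reverse and 0.312 in scramble, and AC008060.4 24.3 in reverse and 0 in scramble. The 9 other genes tested within 500 kb of INSIG1 were not called. Their log2 fold changes ran from -0.20 for INSIG1-DT to 0.70 for EN2, which averaged 15.5 normalized reads in reverse and 9.40 in scramble (adjusted p = 0.73 by limma). Of the 48 genes at least 2-fold different that had a tested neighbour within 500 kb, 4 had a called neighbour, and these are UGT2B7, UGT2B4, LINC03010 and AC008060.4. The median of the neighbours' medians was -0.002. Coordinates are from GENCODE release 29 on GRCh38.

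Low level and long span were common among the called genes. By mean level, 1.69% of genes under 20 normalized reads were called, 0.878% of those from 20 to 100, 0.298% of those from 100 to 1000 and 0.0793% of those over 1000. Genes without reads in 1 group passed the filter only through the group where they were high. Part of the calls at low mean level is thus built in by the filter, and the trend with level was not tested. The 42 protein-coding genes called at least 2-fold had a median span of 105 kb, and 22 of them (52.4%) spanned 100 kb or more. All 12480 protein-coding genes tested had a median span of 33.4 kb, with 19.8% at 100 kb or more, and the 3622 with a mean under 300 normalized reads had a median of 27.8 kb, with 20.2% at 100 kb or more. LAMA2 (633 kb), GALNT13 (582 kb), KCNMB2 (571 kb) and DOCK2 (446 kb) were among the longest of the named genes. Of non-coding RNA genes, 7 were called higher and 2 lower of 1151 tested (0.782%).

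The sequence upstream of the genes at least 2-fold higher in reverse was often poor in CG, and that of the lower genes was mixed. RefSeq windows of 250 bases before the start, of the kind shown for UGT2B7 and FBN2, were found for 22 of 27 genes at least 2-fold higher in reverse and for 16 of the 23 at least 2-fold lower. The median number of CG dinucleotides was 4.5 for the higher genes, 12 for the lower genes, 21 for the 10685 tested genes with a window and 19 for the 3311 of these with a mean under 300 normalized reads. Fewer than 10 CG were found in 63.6% of the higher genes, 50% of the lower genes, 14.6% of all tested genes, 25.2% of those under 300 reads and 48% of all 27195 windows in the table. The letters TATAAA, the core of the TATA box, on either strand, were in 7 windows of the higher genes (31.8%), including those of COL17A1, TACR1 and LCP1, and in 3 of the lower genes (18.8%), among them MYH13 and SMYD1. They were in 5.16% of all tested genes, 6.64% of those under 300 reads and 11.1% of all windows. The letters GTTAAT, a half-site of the HNF1 factors, on either strand, were in 3 windows of the higher genes (13.6%), those of SI, KMO and COL17A1, and in 3 of the lower genes (18.8%), those of SMYD1, HGF and APOH. They were in 2.94% of all tested genes and 6.24% of all windows. These matches describe letters in a window and are no evidence of a bound site.

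**Figure D5:**
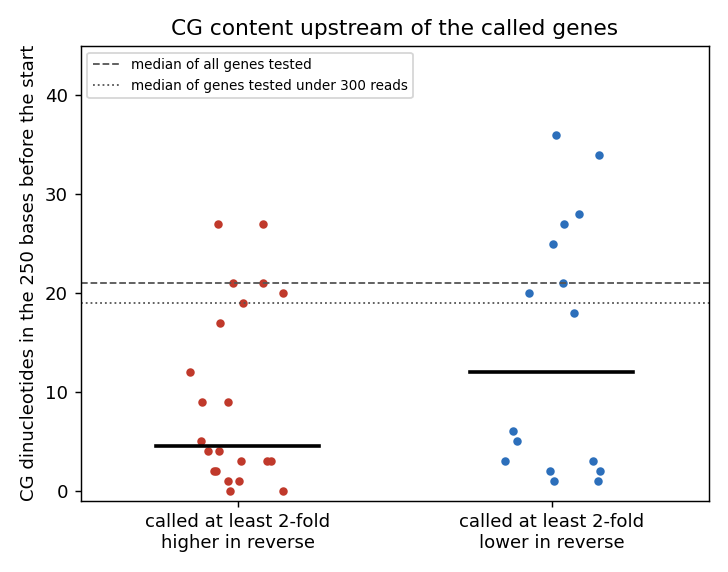
Number of CG dinucleotides in the 250 bases before the RefSeq start of each gene called at least 2-fold higher (22 genes) or lower (16 genes) in reverse, 1 point a gene with a random sideways shift, and the median as a black bar. The medians of 4.5 and 12 lie below the dashed line at 21 for all tested genes, and the lower genes fall into points under 10 and points at 18 or more.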

How the data were processed

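PolyA RNA of 12 HCT116 libraries, 3 each with the reverse, scramble, mCherry and CR3 constructs, was prepared from RNeasy extracts with a stranded TruSeq kit, per the labels' protocols. Sample titles gave the groups and replicate numbers. The submitters' processing notes name GRCh38 and the tools STAR, featureCounts, DESeq2, edgeR, Trim Galore, FastQC, MultiQC, Salmon and GATK, without versions. Neither the annotation release nor the strand setting is known, so overlapping and antisense genes are uncertain. As the values themselves show, the deposited numbers are gene-level counts of reads, which the authors had scaled by 1 size factor a library, and every value of 1 or more has lost its decimal mark.

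Whole reads were restored first. Every one of the 265152 non-zero cells was a whole multiple of the library's 1-read value at some power of 10 (100.0%, tolerance 1e-07). The power was chosen per gene by likelihood with the group labels. Each group had a level of its own around a gene level shared by the 4 groups, so values of the other groups entered the choice. Of 130570 non-zero cells in the 6 libraries, 690 (0.528%) had another power within a likelihood ratio of 20, and 362 genes with such a cell in any library were left out. With the mark of 1-read cells hidden, 98.5% were read correctly. This check covers cells of 1 read only and does not probe the power chosen for larger counts. A group read 10-fold too low would need 3 counts that are all multiples of 10. Among genes restored above 100 reads, all 3 counts were multiples of 10 for 12 genes in reverse and 15 in scramble. A share of 1 in 1000 gives 11.2 and 11.3. A group read too low no longer shows such counts and is not among these. The numbers therefore cannot show whether a given gene was read too low. A decrease of around 10-fold confined to 1 group tended to be left out as ambiguous in simulated data, so large decreases may be undercounted.

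A 4-group model was fitted with limma 3.58.1 in R 4.3.3 to log2(normalized reads + 1) of all 12 libraries, with a mean-variance trend. Fold changes on this scale understate those of low genes. Tests were two-sided, adjusted by Benjamini-Hochberg over the 14618 genes and called under 0.05. Against a group with no read, the fold uses a floor of 3 reads per library, and with 1 to 3 reads an exact 95% counting interval is given. Both cover counting error only. The spread within a group exceeded sampling noise (3.94 in reverse and 3.06 in scramble, as chi-square over degrees of freedom). The labels do not say that they are separate cultures, so p-values measure the spread between these libraries, which may be technical. Same-numbered libraries of the 2 groups deviated with correlations of -0.109 to -0.036, and the numbers were not taken to pair them.

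Named genes had to be called, to reach 1 CPM on average, to have a symbol other than a clone name and to have groups that do not overlap. The 15 highest and the lowest up to 15 by log2 fold change (13 passed) and up to 3 called members per list were taken, 30 genes in all. The genes, the 36 lists and the tests were chosen with earlier results of these data known. Of the called genes, 2 are not reported here, 1 of them among these 30. Symbols matched 52526 identifiers (GENCODE 29 and a table of gene names). Promoter windows are from RefSeq, GRCh38.p14, with a single start kept per gene. The restoration and the fit were tested on simulated data. Other steps used Python 3.11.15 with pandas 2.3.3, numpy 2.4.6 and scipy 1.17.1, and matplotlib 3.10.9 for figures.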

Additional observations from a re-analysis of the deposited data

How the results depend on the processing

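The number of genes called, 63, was 58 with the replicate block, in which the number of the library is a term although the numbers do not pair the libraries, and no reverse library correlated best with its own number (0 of 3). It was 62 to 65 with pseudocounts of 0.5 and 5, scaling by library size or upper quartile, and voom weights, and 76 with ambiguous genes kept. Fitting only the 6 reverse and scramble libraries called 121 genes (86 higher and 35 lower), which held all 63. With at least 1 read in any of the 6 libraries as the filter, 106 genes were called (60 higher, 46 lower, 92 at least 2-fold). With 10 reads in all 6 libraries, 18 were called (12 higher, 6 lower, 9 at least 2-fold), since only 23 of the 63 genes pass that filter. Restricted to genes with a mean of at least 100 reads, an alternative chosen after seeing the data, 19 were called. Leaving out 1 library gave 50 to 63 called genes, 29 to 39 higher, 20 to 25 lower and 45 to 47 at least 2-fold.

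Choosing the powers of 10 with reverse and scramble as 1 group, which by construction draws the groups together, left 40 called (25 higher, 15 lower, 30 at least 2-fold). Only 55 of the 63 genes, and 26 of the 30 named genes, could be tested under this choice. Under it KCTD16 reversed without a call (-0.57, adjusted p = 0.503 by limma). GALNT13 was called in the opposite direction (1.05, adjusted p = 0.0113 by limma). FLG-AS1, COL17A1, SLC1A2, FBN2, NEB and ANK1 lost their calls. The folds of all these genes therefore rest on giving reverse and scramble a level of their own each. The mCherry mean lay nearer to the lower of the 2 groups for each. The values of the other groups entered the choice of the powers, so this nearness is no independent support. Of the 30 named genes, 17 were called with the same sign under every alternative that tested them. LAMA2 lost its call under this choice (adjusted p = 0.0587 by limma), with the replicate block (0.0797) and with 10 reads in all 6 libraries (0.101).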

Other observations

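Of the 362 genes left out for an ambiguous read count, 13 would be called if kept at their best-scoring reading. An ambiguous cell lay in the reverse or scramble libraries for 178 of the 362, and only in mCherry or CR3 for the others. In such a cell, a value that is off by a factor of 10 cannot be told apart from a correct one. The genes below were not sorted by which libraries held the ambiguous cell. ERBB4, a receptor of neuregulins, averaged 209.8 normalized reads in reverse and 28.3 in scramble, with 1.54 in mCherry and 21.3 in CR3. RELN, the secreted matrix protein reelin, averaged 211.6 in reverse and 5.28 in scramble, and RAB9B, a small GTPase, 147.7 in reverse and 6.05 in scramble. POSTN, the matrix protein periostin, averaged 10.2 in reverse and HYAL4, a hyaluronidase family member, 13.2, and both had no read in scramble. In the other direction, PTPRZ1, a receptor phosphatase of neural cells, averaged 7.53 in reverse and 141.0 in scramble. IL20RB, a subunit of receptors for interleukins of the IL-20 family, averaged 17.6 in reverse and 95.2 in scramble.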
